A study of Homo sapiens with 4 samples.

Results

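A stretch of about 29 Mb on the long arm of chromosome 7 (hg19 chr7:128032331-157062066) is described here through its protein-coding genes. The members were all rows of the authors' deposited table that were typed as protein-coding and lay wholly inside these bounds, apart from 3 genes that are not reported. This gave 192 members of the 18327 protein-coding genes and 34675 genes of the table. The bounds were selected on the log2 folds of neighbouring genes in this same comparison, so the direction and size of the members' folds are a description and not a test. The data come from MDA-MB-231, a triple-negative breast carcinoma line with mesenchymal traits that was set up from a pleural effusion. Stable lines held pcDNA plasmid alone (the vector line) or pcDNA carrying wildtype LKB1 with a FLAG tag (the LKB1 line); LKB1 is the kinase encoded by STK11. Both lines were grown in DMEM with serum on plastic, and total RNA of 2 libraries per line went into stranded sequencing of the whole transcriptome.

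It is not labelled whether the 2 libraries of a line were separate cultures, nor whether a line was 1 clone or a pool, so the p-values reflect no more than how these libraries differed, possibly for technical reasons alone. In the titles 3 libraries carry the same numeric tag and 1 LKB1 library another, and those of the LKB1 libraries read fmRNA where those of the vector libraries read mRNA. Line, clone, preparation and these marks cannot be told apart. When the libraries were checked for a mix-up, 1 of the 2 groups failed to match the cell line in its labels, which touches every difference below. The epithelial keratin genes KRT8 (7334 reads in the LKB1 line, 6118 in the vector line), KRT18 (4938 and 4333) and KRT19 (2792 and 2948) were read in both lines. The mesenchymal marker gene VIM, whose reads were not resolved, was at a log2 fold of -0.26 and did not pass (adjusted p = 0.454 per the authors' deposited table). As these are bulk samples, fewer cells with a transcript and less transcript per cell cannot be told apart.

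The end of 7q holds genes of unrelated roles, among them the growth kinase gene BRAF, the mTORC1 activator gene RHEB, the AMPK subunit gene PRKAG2 and the histone methyltransferase gene EZH2. It also holds families that stay silent in most epithelial cells, such as taste and odour receptors, trypsinogens and the GIMAP genes of lymphocytes. Neighbouring genes share the dosage of their chromosome segment and can share chromatin and start regions, which is why genes of unrelated roles can be read together by position. No DNA was measured in these samples. LKB1 acts by phosphorylating AMPK and the related kinases, and PRKAG2 and RHEB belong to that route.

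Each value below is a fold of the LKB1 line over the vector line from the authors' deposited table, with the whole reads of each line recovered from that fold. Totals add up the 2 libraries of each line and carry no spread, and the LKB1 line was read 1.04 times as deeply as the vector line. The direction is not named in the header and was read from STK11, which on this reading had 2112 reads in the LKB1 line and 1321 in the vector line (1.54-fold, adjusted p = 0.00105 per the authors' deposited table). It rests on this gene alone, whose fold is close to that of members such as UBE2H (1.55-fold). If it was misread, every direction given here would reverse. A standard error is given as implied by the deposited fold and p-value together (the log2 fold over the normal quantile of its p). A gene is said to be called, or to have risen or fallen, at a deposited adjusted p under 0.05.

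Most members that were read well stood slightly higher in the LKB1 line. Of the 192 members, 22 had no read in either line, 45 had at least 1 but under 40 reads, 27 had at least 40 but under 200 and 98 had at least 200. Among these 98, 84 had a log2 fold above 0 (85.7%), with a median of 0.39 (1.31-fold), quartiles of 0.23 and 0.55 and an SD of 0.41 between genes. The implied standard error of a single gene had a median of 0.17. Over all 10437 protein-coding genes with at least 200 reads the median was -0.01, with quartiles of -0.21 and 0.19, and 48.5% lay above 0. Of all members 34 were called higher and 2 lower in the authors' deposited table. Over all protein-coding genes 9.7% were called, 4.1% higher and 5.6% lower, and over every gene of the series 5.79% were called, 2.55% higher and 3.24% lower. Of the 98 well-read members 32 were called, all higher, where 12.2% of protein-coding genes with as many reads were called, 6.2% higher and 5.97% lower. Since the same contrast set the bounds, nothing is read from these differences.

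Members with more reads were called more often. Among the 60 members with at least 1000 reads 55 lay above 0, at a median log2 fold of 0.41, and 27 were called, all higher; over protein-coding genes of that depth 12.3% were called, 7.45% higher and 4.81% lower. Among the 38 members with at least 200 but under 1000 reads 29 lay above 0, at a median of 0.37, and 5 were called, all higher; over genes of that depth 12.1% were called, 4.7% higher and 7.35% lower. The 66 members with at least 200 reads that were not called still had a median of 0.30, with 52 of them above 0. Members with fewer reads were split, with 35 of the 72 that were read at all above 0, and 2 were called higher and 2 lower; under 200 reads 6.43% of protein-coding genes were called, 1.32% higher and 5.11% lower. With the variation between libraries set to 0.2 for each gene, 8 of the 36 calls remained: PODXL, DGKI, ATP6V0A4, LRRC61, C7orf29 and RARRES2 higher, and PRSS1 and EPHB6 lower.

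**Figure D1:**
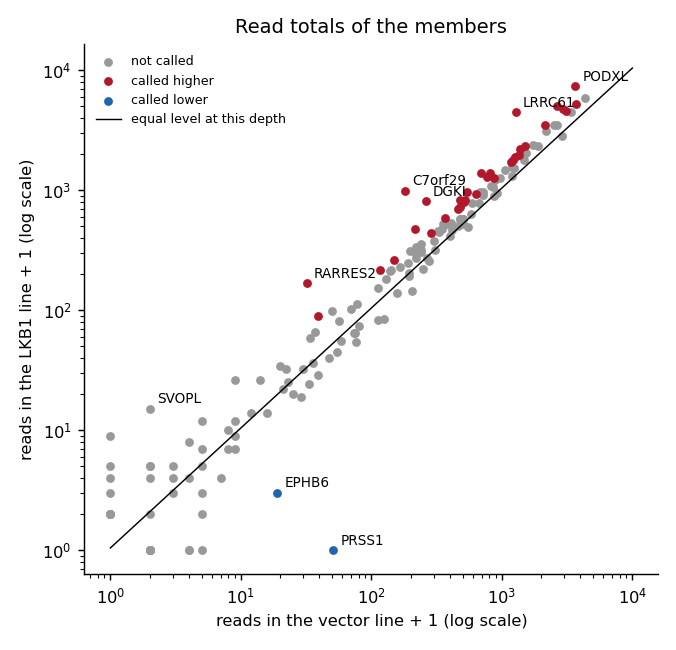
Reads of each resolved member with reads in the vector line (x axis) and the LKB1 line (y axis), each plus 1 on log scales, with a line for equal levels at the measured depths. The drawn members called higher lie above the line, LRRC61 at 4460 against 1279 reads, while PRSS1 (0 against 50) and EPHB6 (2 against 18) lie below it. EXOC4 and FLNC are not drawn because their reads were not resolved, nor are the 22 members with no read in either line.

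The raised level ran along the whole stretch and did not begin or stop sharply at its bounds. In steps of 5 Mb from the start, the median log2 fold of members with at least 200 reads was 0.38 (22 genes), 0.42 (13), 0.46 (24), 0.25 (3), 0.35 (30) and 0.29 (6). The thinly filled step of 3 genes spans the very long CNTNAP2 and its gene-poor surroundings. Of the 14 members with at least 200 reads at or below 0, 9 started between 20 and 25 Mb, in the same step as the highest folds of all. The 25 protein-coding genes with as many reads just before the region had a median of 0.33, with 20 above 0, 4 called higher and 1 called lower, which is 20% called against 12.2% over protein-coding genes of that depth. The 4 such genes between the region and the chromosome's end had one of 0.25. All 371 other genes of chromosome 7 with at least 200 reads had a median of 0.18 and 76.3% above 0, against -0.02 and 47.1% for the 9968 of the other chromosomes.

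Single genes varied on both sides of the bounds. Inside the first bound, IMPDH1, which makes guanine nucleotides, was at a log2 fold of 0.68, METTL2B, a tRNA methyltransferase gene, at 0.10 and CALU, a calcium-binding protein of the endoplasmic reticulum, at 0.39 in the authors' deposited table. Outside it RBM28 was at 0.00, SND1 at 0.36 and ARF5 at 0.12. Inside the last bound UBE3C, a ubiquitin ligase gene, was at 0.34, NOM1 at -0.01 and LMBR1 at 0.46. Beyond it DNAJB6 was at -0.14, NCAPG2 at 0.20 and ESYT2 at 0.45, and ESYT2 was called (adjusted p = 0.0295 per the authors' deposited table). METTL2B has a near-identical copy elsewhere, so its reads are uncertain.

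**Figure D2:**
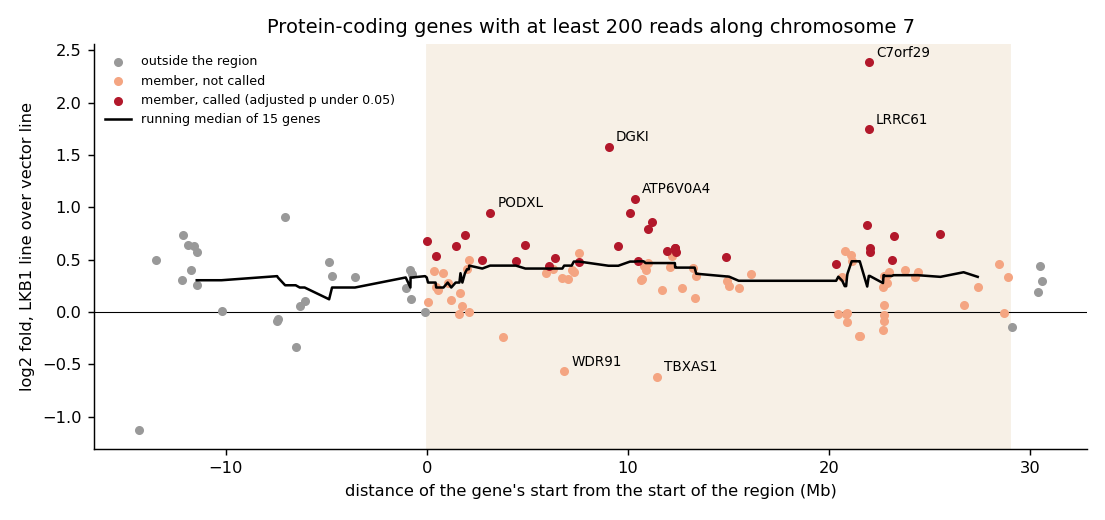
Log2 fold of each protein-coding gene with at least 200 reads (y axis) against the distance of its start from the start of the region in Mb (x axis); the shaded band is the region, coloured points are members and the line is a running median of 15 genes. The line stays above 0 on both sides of the first bound and through the region, and C7orf29 at 2.39 and LRRC61 at 1.75 stand far above their neighbours.

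**Figure D3:**
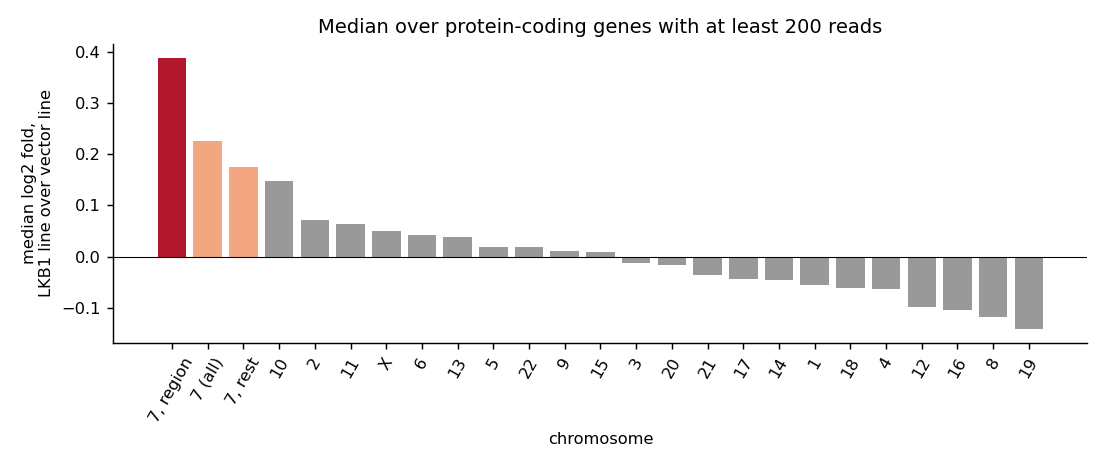
Median log2 fold over protein-coding genes with at least 200 reads (y axis) for each chromosome, with chromosome 7 also split into the region and the rest (x axis). The region is at 0.39, the rest of chromosome 7 at 0.18, and the medians of the other chromosomes run from 0.15 on chromosome 10 to -0.14 on chromosome 19.

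The largest increases lay together. Of the 6 neighbours from ACTR3C to ZNF775 (149941005 to 150109558), all were called higher, and 3 of them had the highest folds among the called members. The group was marked out after its values were seen, so its calls are a description, beside 5.79% called over all genes. The members next to it on each side, ATP6V0E2 and GIMAP8, were not called. LRRC61, a leucine-rich repeat protein gene on the plus strand, had 4460 reads in the LKB1 line against 1279 in the vector line, 3.35-fold in the authors' deposited table (log2 1.75, implied SE 0.15, adjusted p = 5.07e-27). C7orf29 lies inside the span of LRRC61 on the same strand, so the sharing of reads between the pair is uncertain. It had 985 reads against 181, 5.23-fold (log2 2.39, implied SE 0.19, adjusted p = 2.34e-32 per the authors' deposited table). RARRES2 encodes chemerin, a secreted attractant of leukocytes and an adipokine. It lies just beyond LRRC61 on the other strand and overlaps no gene of the table, with 167 reads against 31, 5.15-fold (adjusted p = 2.41e-10 per the authors' deposited table).

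Toward both sides the increase was smaller. ACTR3C, a gene related to a subunit of the ARP2/3 actin nucleator, reads away from LRRC61 on the minus strand and overlaps it by 1087 bases. It had 215 reads in the LKB1 line and 116 in the vector line, 1.78-fold (adjusted p = 0.0343 per the authors' deposited table), and its reads are uncertain because ACTR3B is a near-identical copy. Without stated strand use, reads of ACTR3C and of the far more read LRRC61 cannot be told apart in the overlap either. REPIN1, a zinc finger gene, had 2195 reads against 1384 and ZNF775 2315 against 1495, 1.53-fold and 1.49-fold in the authors' deposited table. These last 2 overlap on the same strand and may share reads. A transcript of another type between RARRES2 and REPIN1, RP4-584D14.7, had 36 against 14 reads and did not pass (adjusted p = 0.261 per the authors' deposited table). Without these 6 members the median log2 fold of the members with at least 200 reads was 0.38.

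**Figure D4:**
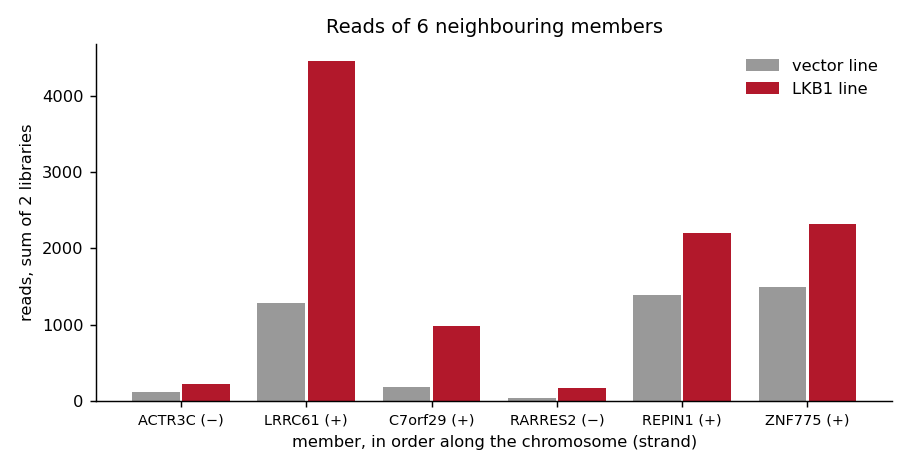
Reads of the 6 neighbouring members (y axis, sum of 2 libraries of a line, no error available) in their order along the chromosome with their strand (x axis), for the vector line (grey) and the LKB1 line (red). Every red bar is the taller one, from 215 against 116 in ACTR3C to 4460 against 1279 in LRRC61.

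Promoter windows of 300 bases (250 before and 50 after the start) are shown for 3 of the starts of this group, for DGKI, the next highest, and for EZH2, whose fold was near 0. They come from RefSeq on GRCh38.p14, not from the hg19 build of the table, and 162 of the 192 members had a window. Capitals mark a match, on either strand, to any of 4 short motifs: TGACGTCA, the cyclic AMP response element bound by CREB; CACGTG, an E-box; CCGGAAGT, an ETS factor site; and the palindrome bound by NRF1, itself a member. These motifs were picked after the windows had been read. The windows are LRRC61 (chr7:150323105-150323404, plus strand), ACTR3C (chr7:150323496-150323795, minus strand), RARRES2 (chr7:150341580-150341879, minus strand), DGKI (chr7:137846925-137847224, minus strand) and EZH2 (chr7:148884242-148884541, minus strand). The first listed start was used where RefSeq gives several.
LRRC61: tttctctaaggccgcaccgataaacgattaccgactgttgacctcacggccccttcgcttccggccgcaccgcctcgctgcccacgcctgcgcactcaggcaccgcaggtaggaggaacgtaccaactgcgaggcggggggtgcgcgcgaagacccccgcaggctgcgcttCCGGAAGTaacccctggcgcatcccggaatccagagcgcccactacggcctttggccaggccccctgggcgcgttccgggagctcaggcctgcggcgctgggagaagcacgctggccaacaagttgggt
ACTR3C: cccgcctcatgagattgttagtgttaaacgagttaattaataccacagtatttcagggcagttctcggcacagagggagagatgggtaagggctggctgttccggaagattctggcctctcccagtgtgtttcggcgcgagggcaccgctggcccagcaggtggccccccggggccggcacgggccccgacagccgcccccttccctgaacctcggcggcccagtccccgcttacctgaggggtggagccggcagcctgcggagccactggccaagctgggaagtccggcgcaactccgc
RARRES2: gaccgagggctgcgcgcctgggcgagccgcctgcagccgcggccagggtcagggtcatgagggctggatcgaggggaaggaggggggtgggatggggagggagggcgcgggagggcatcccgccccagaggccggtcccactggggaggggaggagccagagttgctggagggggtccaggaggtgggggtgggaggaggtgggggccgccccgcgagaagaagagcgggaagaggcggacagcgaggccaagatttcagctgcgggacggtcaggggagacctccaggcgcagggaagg
DGKI: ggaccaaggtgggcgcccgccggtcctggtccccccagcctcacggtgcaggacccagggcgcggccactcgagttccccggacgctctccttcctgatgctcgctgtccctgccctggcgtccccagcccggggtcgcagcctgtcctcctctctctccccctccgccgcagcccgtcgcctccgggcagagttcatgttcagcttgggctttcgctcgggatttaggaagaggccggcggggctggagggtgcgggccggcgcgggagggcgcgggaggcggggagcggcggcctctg
EZH2: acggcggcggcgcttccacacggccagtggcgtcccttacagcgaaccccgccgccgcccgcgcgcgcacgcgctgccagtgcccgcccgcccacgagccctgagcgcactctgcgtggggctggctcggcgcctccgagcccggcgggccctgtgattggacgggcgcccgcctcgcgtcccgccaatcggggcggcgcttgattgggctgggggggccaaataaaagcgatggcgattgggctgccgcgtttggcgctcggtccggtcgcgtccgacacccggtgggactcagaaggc

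Of these 5 windows, that of LRRC61 held a match, the ETS letters in capitals, and the other windows held none of the 4 motifs. The first listed RefSeq starts of LRRC61 and ACTR3C lie 190 bases apart with the transcripts overlapping head to head. ACTR3C has 4 listed starts, and the overlap of 1087 bases given above is from the hg19 gene spans of the authors' deposited table, so the 2 values differ. All 5 were rich in G and C, from 65% in ACTR3C to 74.7% in EZH2. In the members' windows the CREB letters were found in 4 (2.47%), against 2.76% of 14000 windows of protein-coding genes, namely CREB3L2, NDUFB2, XRCC2 and ACTR3B. The E-box was found in 9 (5.56% against 9.13%), the NRF1 letters in 2, MTPN and UBN2 (1.23% against 1.88%), and the ETS letters in 7 (4.32% against 6.81%). Matches were counted for each motif on its own, so matches of different motifs could overlap. The median window of the members held 62.8% G and C and 21 CG steps, against 63.7% and 24 over all.

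For the counts in the lists by role below, 18.75% of all 192 members and 32.7% of the 98 well-read ones were called. Over all genes of the series 5.79% were called, over protein-coding genes 9.7% and over those with at least 200 reads 12.2%. The lists were drawn up with earlier results of these data known, so their counts and medians describe these members and not a role. Signalling genes had the highest median among the lists with at least 3 well-read members. Of 12 members in the list of kinases, GTPases and their partners, 5 rose, 1 fell and 6 did not pass, and the 7 with at least 200 reads stood at a median log2 fold of 0.58. DGKI, a diacylglycerol kinase that ends diacylglycerol signals, had 810 reads in the LKB1 line and 260 in the vector line, 2.99-fold (log2 1.58, implied SE 0.19, adjusted p = 1.66e-14 per the authors' deposited table). The AMPK gamma subunit gene PRKAG2 had 1386 against 805 reads, 1.66-fold (implied SE 0.16 on the log2 scale, adjusted p = 0.000164 per the authors' deposited table). RHEB, the small GTPase that switches mTORC1 on, had 1782 against 1213 reads (1.41-fold, adjusted p = 0.0218 per the authors' deposited table). The RAF kinase gene BRAF had 441 against 284 and the mitochondrial kinase-like ADCK2 579 against 363 reads, both called higher. CDK5, a kinase best known in neurons, went the other way without passing, with 255 against 276 reads. AGAP3, an ARF GTPase-activating protein gene, had 1303 against 1196 reads (log2 0.07 in the authors' deposited table) and did not pass.

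EPHB6, an Eph receptor without kinase activity, was the member of this list that fell, with 2 reads in the LKB1 line and 18 in the vector line. The ratio was 9.36, exact 95% counting interval 2.24 to 83.2, and its adjusted p was 0.034 per the authors' deposited table. Its relative EPHA1 had 0 and 3 reads, too few for a fold. ARHGEF5 and ARHGEF35, near-identical exchange factor genes, had 80 against 56 and 31 against 21 reads and did not pass.

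Of 17 genes of chromatin and transcription 4 rose, none fell and 13 did not pass. The 9 with at least 200 reads stood at a median log2 fold of 0.40, with 8 of them above 0. TRIM24, a chromatin reader and ubiquitin ligase, had 1381 reads in the LKB1 line and 689 in the vector line, 1.93-fold (implied SE 0.16 on the log2 scale, adjusted p = 7.16e-07 per the authors' deposited table). The stress-activated kinase HIPK2 had 4994 against 2643 reads, 1.82-fold (adjusted p = 1.42e-07 per the authors' deposited table). CREB3L2, a factor released from the endoplasmic reticulum membrane, had 4748 against 2953 (1.55-fold in the authors' deposited table). SMARCD3, a subunit of the BAF remodelling complex, rose from 38 to 88 reads (2.22-fold, adjusted p = 0.00933 per the authors' deposited table). The methyltransferase gene MLL3 had 2378 against 1735 reads (log2 0.40, adjusted p = 0.0883 per the authors' deposited table) and did not pass. EZH2, the catalytic subunit of Polycomb complex PRC2, had 948 against 921 reads, a log2 fold of -0.01 in the authors' deposited table.

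The zinc finger genes, many of which sit in 1 cluster near EZH2, split within a short distance. Of 14 members 3 were called higher, namely C7orf29, REPIN1 and ZNF775, all of the neighbouring group above, and 11 did not pass. C7orf29 (current symbol ZBED10P) was put in the list by name, and whether it holds a zinc finger was not checked. Over the 10 with at least 200 reads the median log2 fold was 0.52, but 4 of them were below 0. That median includes the 3 called members of the neighbouring group, whereas the 4 below 0 all lay in the cluster. It therefore does not describe the cluster. ZNF398 (308 against 198 reads), ZNF777 (333 against 219) and ZNF746 (351 against 241) were at log2 folds of 0.58, 0.55 and 0.49 in the authors' deposited table. Between them lay ZNF282 with 412 against 402 reads, ZNF212 with 190 against 195 and ZNF783 with 202 against 195, all near a log2 fold of 0. ZNF862 had 218 against 246 reads (log2 -0.23 in the authors' deposited table).

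**Figure D5:**
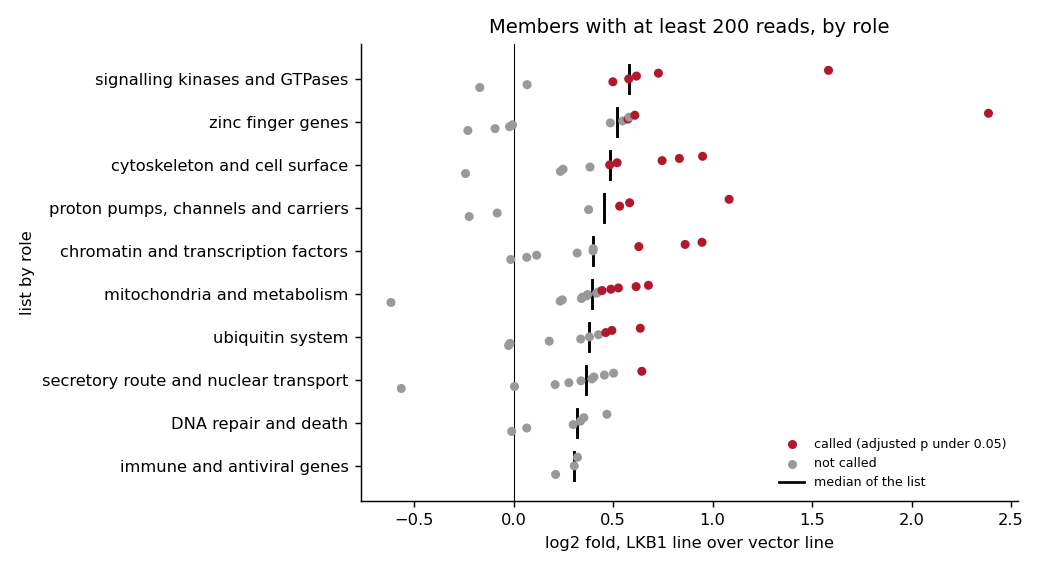
Log2 fold of the members with at least 200 reads (x axis) for each list by role that had at least 3 such members (y axis); red points are called, grey points are not, and bars are list medians. The medians run from 0.30 for immune and antiviral genes to 0.58 for signalling genes, and the called points all lie to the right of 0.

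Genes of mitochondria and metabolism rose in 5 of 18 members, with none falling. The 14 with at least 200 reads stood at a median log2 fold of 0.39. IMPDH1 had 1282 reads against 771 (log2 0.68, implied SE 0.16, adjusted p = 0.000529 per the authors' deposited table). NDUFB2, a complex I subunit whose span overlaps ADCK2 on the same strand, had 830 against 521. CHCHD3, which shapes mitochondrial cristae, had 1262 against 865, and the glutathione transferase gene GSTK1 695 against 464. Aldose reductase AKR1B1 had 5189 against 3668 reads (1.36-fold, adjusted p = 0.0433 per the authors' deposited table), whereas its close relatives AKR1B10 (3 against 6) and AKR1B15 (0 against 1) were hardly read. SSBP1, which binds mitochondrial single-stranded DNA, had 1089 against 827 and did not pass, nor did FASTK, a founder of a family of mitochondrial RNA-binding proteins, with 777 against 588. TBXAS1, thromboxane synthase, was the lowest of the 98 well-read members with 84 against 124 reads, a log2 fold of -0.62 that did not pass (adjusted p = 0.348 per the authors' deposited table).

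TBXAS1 starts head to head with HIPK2, overlapping it by 728 bases, and the pair lay on opposite sides of 0. Among 11 head-to-head pairs of members with starts within 1500 bases, 4 had at least 200 reads in both genes. Besides HIPK2 with TBXAS1, ACTR3C and LRRC61 both rose, and DENND2A and ADCK2 were both above 0 (log2 0.54 and 0.62 in the authors' deposited table). CDK5 and SLC4A2 were both slightly below 0 (-0.17 and -0.08 in the authors' deposited table). The genes of all 4 pairs overlap, and without stated strand use their reads in the overlap cannot be told apart.

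Proton pump subunits, channels and carriers rose in 3 of 12 members and fell in none, with a median log2 fold of 0.45 over the 6 with at least 200 reads. ATP6V0A4, the a4 subunit of the vacuolar ATPase that is typical of kidney and other acid-secreting cells, had 476 reads in the LKB1 line and 216 in the vector line (2.12-fold, log2 1.08, implied SE 0.20, adjusted p = 7.08e-06 per the authors' deposited table). ATP6V1F of the same pump had 716 against 476 (1.45-fold in the authors' deposited table). Another pump subunit, ATP6V0E2, had 487 against 547 reads and did not pass. SLC37A3, a transporter of the lysosome, had 799 against 513 reads and was called, while the anion exchanger gene SLC4A2 had 2846 against 2899, a log2 fold of -0.08 in the authors' deposited table. The nucleotide sugar carrier gene SLC35B4 had 968 against 717 reads and did not pass. KCNH2, CLCN1, TRPV5 and SLC13A4 had from 0 to 4 reads over both lines.

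Cytoskeletal and surface genes rose in 5 of 13 members. Over the 9 with at least 200 reads the median log2 fold was 0.48. PODXL, a sialomucin that keeps cell surfaces apart, had 7307 reads in the LKB1 line against 3639 in the vector line (1.93-fold, implied SE 0.14 on the log2 scale, adjusted p = 3.59e-09 per the authors' deposited table). Caldesmon CALD1, an actin and myosin regulator, had 1889 against 1267, and MTPN, which acts on actin capping, 4529 against 3117 (log2 0.52 and 0.48 in the authors' deposited table). DPP6, a partner of potassium channels, had 260 against 149 and was called (adjusted p = 0.0454 per the authors' deposited table). The focal adhesion protein zyxin, ZYX, had 2329 against 1886 reads and filamin FLNC a log2 fold of 0.24, and neither passed. The semaphorin receptor gene PLXNA4 had 138 against 157 reads. SHH, the Hedgehog ligand, had 11 against 8 reads.

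Of the 10 members of the secretory route and nuclear transport 1 was called, EXOC4, an exocyst subunit whose reads were not resolved (1.56-fold, adjusted p = 0.00105 per the authors' deposited table). Their median log2 fold was 0.37. PDIA4, a disulfide isomerase of the endoplasmic reticulum, had 4470 against 3401 reads, CALU 5893 against 4316 and the nuclear pore gene NUP205 3463 against 2518, none of them passing. TNPO3, an importin that carries splicing factors, had 1771 against 1474 and did not pass. MEST, which is read from the paternal copy only in many tissues, had 317 against 304 reads, a log2 fold of 0.00 in the authors' deposited table. WDR91, an endosome protein, was the second lowest of the well-read members at 144 against 205 (log2 -0.56, adjusted p = 0.219 per the authors' deposited table).

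In the ubiquitin system 3 of 11 members rose, with a median log2 fold of 0.38 over the 9 with at least 200 reads. UBE2H, a ubiquitin-conjugating enzyme, had 3462 reads in the LKB1 line against 2142 in the vector line (1.55-fold, adjusted p = 0.000479 per the authors' deposited table). MKLN1, a subunit of the CTLH ligase, had 1707 against 1166 and CUL1, the scaffold of SCF ligases, 1942 against 1355. TMUB1 (518 against 507) and ZC3HC1 (273 against 266) were at log2 folds of -0.03 and -0.02 in the authors' deposited table, and MKRN1, another ligase gene, had 1477 against 1057 reads without passing. In a mixed list of 6 members, headed DNA repair and death, none was called, at a median of 0.32. It also held genes of other roles, namely ABCF2, NOM1 and the splicing factor gene LUC7L2, so this median is not one of that role. CASP2 had 911 against 712 reads, XRCC2, a gene of recombination repair, 315 against 240, PAXIP1 629 against 578, and ABCF2 2022 against 1523.

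Many members of lymphoid, sensory and digestive families had few or no reads in either line. Of 13 immune and antiviral members 10 had under 200 reads, and RARRES2 was the 1 called. The antiviral zinc finger gene ZC3HAV1 had 1552 against 1195 reads and PARP12 574 against 477, neither passing. ZC3HAV1L had 244 against 190 and IRF5, an interferon regulatory factor, 25 against 8 reads. GIMAP2, GIMAP4, GIMAP5, GIMAP6 and GIMAP8 had from 0 to 16 reads over both lines. Of 14 taste, odour and digestive members 13 had under 200 reads. The exception was CPA4, a carboxypeptidase known from carcinoma cells, with 821 against 474 reads (1.67-fold, adjusted p = 0.000422 per the authors' deposited table). Its neighbours CPA1 and CPA5 had 0 and 0, and 8 and 0 reads. PRSS1, cationic trypsinogen, fell from 50 reads in the vector line to 0 in the LKB1 line, which is at least 17.3-fold lower against a floor of 3 reads over the group (adjusted p = 8.67e-10 per the authors' deposited table). Several near-identical trypsinogen genes lie beside it, so which copy was read is uncertain. MGAM, an intestinal glucosidase, had 21 against 20 reads and the bitter taste receptor gene TAS2R5 4 against 4.

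Among the 54 members in no list 15 had at least 200 reads, and all 15 lay above 0, at a median log2 fold of 0.38. Besides LRRC61, C7orf55 rose (970 against 537 reads, adjusted p = 0.044 per the authors' deposited table), a gene that overlaps the splicing factor gene LUC7L2 on the same strand and may share its reads (3111 against 2162, not called). KIAA1549, known for its fusions with BRAF, had 920 against 632 reads and was called (adjusted p = 0.0493 per the authors' deposited table). SVOPL, a transporter-like gene, had 14 reads in the LKB1 line and 1 in the vector line, a ratio of 13.5 (interval 2.05 to 569), and did not pass (adjusted p = 0.0636 per the authors' deposited table). The exact intervals and the floor cover counting error only.

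Position relative to other genes, base composition and length were also read. Of the 192 members 52 overlapped another gene of the table on the same strand and 69 one on the opposite strand, and 96 overlapped none. Well-read members without a same-strand overlap had a median log2 fold of 0.38 (69 genes) and those with one 0.47 (29 genes). Members on the plus strand were at 0.38 and those on the minus strand at 0.40. In the 98 well-read members the longest transcript had a median GC content of 47.3% and a median length of 4062 bases, against 47.9% and 3834 bases over all protein-coding genes of that depth. Their genes spanned a median of 50.1 kb, against 36.0 kb over the same genes. With the trend of GC content and length taken off, the median log2 fold of the 98 was 0.38, against 0.39 before.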

How the data were processed

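The deposited table holds 1 comparison over 4 libraries, with no value per library. Per the file headers, the authors gave each gene a linear fold or ratio, the log2 fold, and p-values before and after adjustment; the adjusted p-values matched a Benjamini-Hochberg adjustment over all 34675 genes to within 1.89e-06. Per the submitters' processing notes, edgeR 2.6.0, TopHat2 2.0.6, CASAVA 1.8.2 and the build hg19 were used, in roles not stated; how reads were counted, with or without strand, is not given in the sources used here either.

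Whole reads per line were recovered from the fold: the commonest folds gave prior counts of 0.254868 (LKB1) and 0.245132 (vector), and the smallest whole totals up to 8000 reads per line that gave the printed fold were taken. This resolved 28002 of 28242 genes with reads and 190 of 192 members. Altered constants matched 124 to 176 genes below 3000 reads, where 27282 were resolved, and 46 to 67 of the 960 above, so totals above 3000 (14 members, or not resolved) are less sure. Unresolved genes were treated as having at least 200 reads. The recovery and the exact negative binomial test were tested on simulated data (Python 3.11.15, scipy 1.17.1). GC content and length came from GENCODE 29 (98.7% of well-read protein-coding genes), promoter windows from RefSeq.

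Members, lists and motifs were chosen with earlier results of these data known. Named members were those called lower, the 12 highest and 12 lowest folds with at least 200 reads, up to 5 most-read and the called ones of each list, the 3 protein-coding genes nearest to each bound on either side and the 5 most-read called ones; KIAA1549, SVOPL, SHH, EPHA1, MEST, XRCC2, ZNF398, ZNF777, ZNF783, low-read families and genes named for pairs, copies or motifs were added after their values were seen. No column of per-sample values was left unused (0).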

Additional observations from a re-analysis of the deposited data

How the results depend on the processing

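The table has no values per library, so leaving out a library was not run. No paired analysis was possible because the table holds no value per library and the libraries share no replicate numbers in the labels. The count of 36 called members was 19 (18 higher, 1 lower) at an adjusted p under 0.01, where 3.95% of all genes were called. It was 8 (6 higher, 2 lower) with a variation of 0.2 assumed, where 2.51% were; with 0.1 assumed it was 40, where 6.93% were. At an adjusted p under 0.1 it was 43, where 6.96% were. Adjusted again over genes with at least 40 or 200 reads it was 41 or 37, where 15.4% or 14.8% of those genes were called. Settings that left out members or narrowed the region gave 24 to 34, each over fewer members. The 24 was the count without the 52 members that overlap a gene on the same strand. The median log2 fold of 0.39 was 0.30 without the called members and 0.36 to 0.41 in the other 10 settings. The share above 0 of 85.7% was 70% over all members with any reads and 77.6% to 91.7% in the other 10 settings. Settings without overlapping genes and without the ACTR3C to ZNF775 group were chosen after seeing the data. No direction reversed. Low totals limit what can be said of the 94 members under 200 reads.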

Other observations

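The region also held 188 genes of other types, such as pseudogenes, antisense transcripts and small RNAs. Of these 20 had at least 40 reads, with a median log2 fold of 0.38 and 12 of them above 0. TRBC2, a constant segment of the T cell receptor beta chain, had 414 reads in the LKB1 line and 112 in the vector line (3.55-fold, adjusted p = 5.29e-13 per the authors' deposited table). PRSS3P2, a trypsinogen-like pseudogene beside PRSS1, had 0 against 52 reads, at least 18.0-fold lower against a floor of 3 reads (adjusted p = 3.89e-10 per the authors' deposited table). Reads of PRSS1 and PRSS3P2, which are near-identical in sequence, cannot be assigned with certainty.

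The Y RNA genes RNY5 and RNY1, whose small RNAs bind the Ro60 protein, lie close together near EZH2 and had opposite signs. RNY5 had 5603 against 3665 reads and RNY1 3518 against 4782, and neither passed (adjusted p = 0.437 and 0.131 per the authors' deposited table). KCP, a modulator of bone morphogenetic proteins listed as a processed transcript, had 36 against 9 reads (adjusted p = 0.0506 per the authors' deposited table). ATP6V0E2-AS1, antisense by name, had 82 against 119 reads, a log2 fold of -0.59 in the authors' deposited table that did not pass; without stated strand use, its reads and those of ATP6V0E2 cannot be told apart. ZNF767, listed as a pseudogene in the zinc finger cluster, had 327 against 219 reads and did not pass.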
